A study of Mus musculus with 20 samples.

Results

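CXC chemokines were examined in macrophages of the cranial dura mater that had repopulated their niche after depletion. The family was defined by 10 gene symbols (Cxcl1, Cxcl2, Cxcl3, Cxcl5, Cxcl9, Cxcl10, Cxcl11, Cxcl13, Cxcl14 and Cxcl16), and 9 of them had a row among the 33243 genes of the count table. Cxcl11 was not analysed here. All 9 passed the filter on low counts and were among the 16632 genes tested.

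All mice were Ccr2creERT2/+ R26tdT/tdT, so that tamoxifen switched on the red fluorescent protein tdTomato (tdT) in cells expressing Ccr2 at the time of injection. Every mouse, controls included, had been gavaged for 7 days with 200 mg per kg of BLZ945, an inhibitor of CSF1R that depletes macrophages. The last gavage day brought the first of 3 tamoxifen doses of 2 mg, and the other doses came 2 and 4 days later. After a further 8 weeks, bacterial lipopolysaccharide (LPS) was injected at 2.5 mg per kg, or PBS in the control (CTL) mice, 12 h before the dura was collected. From each of 10 mice, CNS-associated macrophages of the dura (dCAMs) were sorted by a CD45int CD11b+ CD206int-high gate into 1 tdT+ and 1 tdT- library, which gave 20 libraries in 4 groups of 5. The labels used here give no age, and since no group was spared BLZ945, the LPS response of undepleted dCAMs was not analysed here. The tdT label records Ccr2 expression during the tamoxifen days alone, and a cell that escaped recombination would be sorted as tdT-.

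Chemokines of the CXC family are small secreted proteins that direct leukocyte migration through G protein-coupled receptors. Members with an ELR motif ahead of the paired cysteines (Cxcl1, Cxcl2, Cxcl3 and Cxcl5) act on Cxcr2 and attract neutrophils, whereas the interferon-inducible members Cxcl9 and Cxcl10 act on Cxcr3 and attract activated T cells and natural killer cells. Cxcl13 attracts B cells through Cxcr5, Cxcl16 is made as a transmembrane protein that binds Cxcr6 and oxidized lipids, and Cxcl14 is a broadly expressed member whose receptor is debated. Macrophages stimulated through Toll-like receptors are a textbook source of several of them.

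In the mouse genome most of these genes sit together on chromosome 5. In GRCm38 with the GENCODE M21 annotation, all on the plus strand, Cxcl5 lies at chr5:90759360-90761624, Cxcl3 at chr5:90786103-90789600, Cxcl1 at chr5:90891241-90893115 and Cxcl2 at chr5:90903871-90905938. Cxcl9 (chr5:92321347-92328079) and Cxcl10 (chr5:92346638-92348889) follow on the minus strand, and Cxcl13 lies farther on at chr5:95956951-95961068 on the plus strand. Cxcl16 (chr11:70453983-70459984) and Cxcl14 (chr13:56288643-56296551), both on the minus strand, are on chromosomes of their own. All 9 are annotated as protein coding. Exons of Cxcl10 overlap those of Art3, and exons of Cxcl16 those of Zmynd15, so that their counts are less certain where the counting did not use strand.

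The promoters of Cxcl1, Cxcl2, Cxcl3 and Cxcl10 are shown because Cxcl2 and Cxcl3 lay at opposite ends of the family in CTL mice, and because all of them hold a binding motif of NF-kB (kB), a factor activated by Toll-like receptors. Sequences are from RefSeq on GRCm38.p6, which had a promoter entry for 7 of the members, Cxcl5, Cxcl11 and Cxcl16 being without one. Capitals mark kB and interferon-response (ISRE) motifs, and each sequence ends at the base before the annotated start. The first 3 give the last 150 bases, at chr5:90891095-90891244, chr5:90903749-90903898 and chr5:90785951-90786100 on the plus strand, and the last gives 250 bases at chr5:92348890-92349139 on the minus strand.
Cxcl1: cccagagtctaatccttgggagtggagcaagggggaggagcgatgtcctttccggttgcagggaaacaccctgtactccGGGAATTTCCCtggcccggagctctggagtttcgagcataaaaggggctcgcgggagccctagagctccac
Cxcl2: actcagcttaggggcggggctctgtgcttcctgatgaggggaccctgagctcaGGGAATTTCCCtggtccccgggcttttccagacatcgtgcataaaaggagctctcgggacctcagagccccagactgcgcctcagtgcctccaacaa
Cxcl3: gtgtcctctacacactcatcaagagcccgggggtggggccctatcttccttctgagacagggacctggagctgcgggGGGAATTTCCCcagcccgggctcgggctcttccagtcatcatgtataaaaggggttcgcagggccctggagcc
Cxcl10: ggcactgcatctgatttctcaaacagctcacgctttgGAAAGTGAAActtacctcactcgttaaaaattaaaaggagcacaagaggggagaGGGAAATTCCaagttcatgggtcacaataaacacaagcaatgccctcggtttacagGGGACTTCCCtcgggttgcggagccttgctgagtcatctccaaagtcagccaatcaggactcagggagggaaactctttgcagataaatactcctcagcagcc

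The 3 clustered genes carried the same 10 letters, GGGAATTTCC, starting 71 (Cxcl1), 97 (Cxcl2) and 73 (Cxcl3) bases before the start, with a match on the other strand shifted by 1 base. Cxcl10 held 2 kB motifs, 159 and 103 bases before its start, and an ISRE (GAAANNGAAA) at 213 bases. Searched over both strands in the same 250 bases, a kB motif was present in 3.90% of 32851 promoters and an ISRE in 2.98%. The interferon-gamma motif GAS (TTCNNNGAA) was present in 7.02% of promoters, among them that of Cxcl14, which also held an ISRE. No match to the letters searched for kB, ISRE and GAS was found in the windows of Cxcl9 and Cxcl13, and near matches were not counted. A match describes letters in the window, and binding was not measured.

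Library totals ranged from 6017650 to 18925908 counts and were higher under LPS (12073566 to 18925908) than in CTL mice (6017650 to 12208203). Genes with more than 3 counts numbered 7376 to 9807 in tdT- CTL, 10390 to 11572 in tdT+ CTL and 11682 to 13118 in LPS libraries, and the part of this difference in the results was not tested. Levels are given as CPM, the count per 1000000 counts of the library after TMM scaling, and a library's floor of 3 counts lay between 0.170 and 0.487 CPM. The 13 defining markers of border macrophages, such as Mrc1 and Csf1r, were above the floor in all 20 libraries, with a summed level of 14368 to 26073 CPM in tdT- CTL, 29101 to 33447 CPM in tdT+ CTL, 11180 to 15739 CPM in tdT- LPS and 13379 to 18875 CPM in tdT+ LPS libraries. Libraries that stood apart were found among the tdT- CTL group. The library of mouse 179 had a summed level of 7 fibroblast markers of 4668 CPM and that of mouse 175 of 1068 CPM, against 10.9 to 315 CPM in the remaining libraries of that group and 73.6 to 415 CPM in the other 15. Markers of dendritic cells also differed by population, at 618 to 3329 CPM in tdT- and 48.2 to 77.0 CPM in tdT+ CTL libraries, and at 262 to 638 against 11.4 to 52.4 CPM under LPS. In tdT- libraries the sum was carried mainly by Cd209a in CTL (mean 1228 CPM, against 44.2 in tdT+) and by Ccr7 under LPS (401 against 7.21 CPM). Cd209a averaged 26.8 and 17.4 CPM under LPS. The 5 monocyte markers, Ccr2 among them, summed to 548 to 1095 CPM in tdT- and 160 to 467 CPM in tdT+ CTL libraries. Under LPS they summed to 278 to 727 CPM in tdT- and 136 to 292 CPM in tdT+ libraries. Ccr2 averaged 615 and 277 CPM in tdT- and tdT+ CTL libraries and 70.8 and 15.6 CPM in LPS libraries. The 5 platelet markers summed to 3.46 CPM at most and the 5 T cell markers to 20.5 CPM. Values are listed below in the order of mice 174, 175, 177, 178 and 179 for CTL and 54, 56, 59, 60 and 61 for LPS.

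LPS went with higher mRNA of Cxcl2, Cxcl3 and Cxcl5 in both populations, of Cxcl9 and Cxcl14 in tdT- dCAMs and of Cxcl13 in tdT+ dCAMs, and with lower mRNA of Cxcl16 in tdT+ dCAMs. The threshold was an adjusted p (Benjamini-Hochberg, edgeR's quasi-likelihood test over all genes) under 0.05 together with an absolute log2 fold change over 1. By this threshold no member differed in its LPS effect between the populations in the main fit. A call in 1 population therefore does not mark a response particular to it. In tdT- dCAMs 5 of the 9 members passed as higher, where 7.20% of all genes did, and 0 as lower, where 4.27% did. In tdT+ dCAMs 4 passed as higher, where 3.37% of all genes did, and Cxcl16 as lower, where 2.52% did. In each population all LPS libraries lay above all CTL libraries for 6 members, against 9.32% (tdT-) and 10.6% (tdT+) of all genes, and below them for 1 member, Cxcl16, against 3.31% and 7.19%. The median log2 fold change of the 9 members was 3.79 in tdT- and 2.80 in tdT+ dCAMs, against 0.02 and 0.01 over all genes tested. Both populations of a mouse come from the same dura, and in bulk samples fewer cells of a type and less RNA per cell cannot be told apart.

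**Figure D1:**
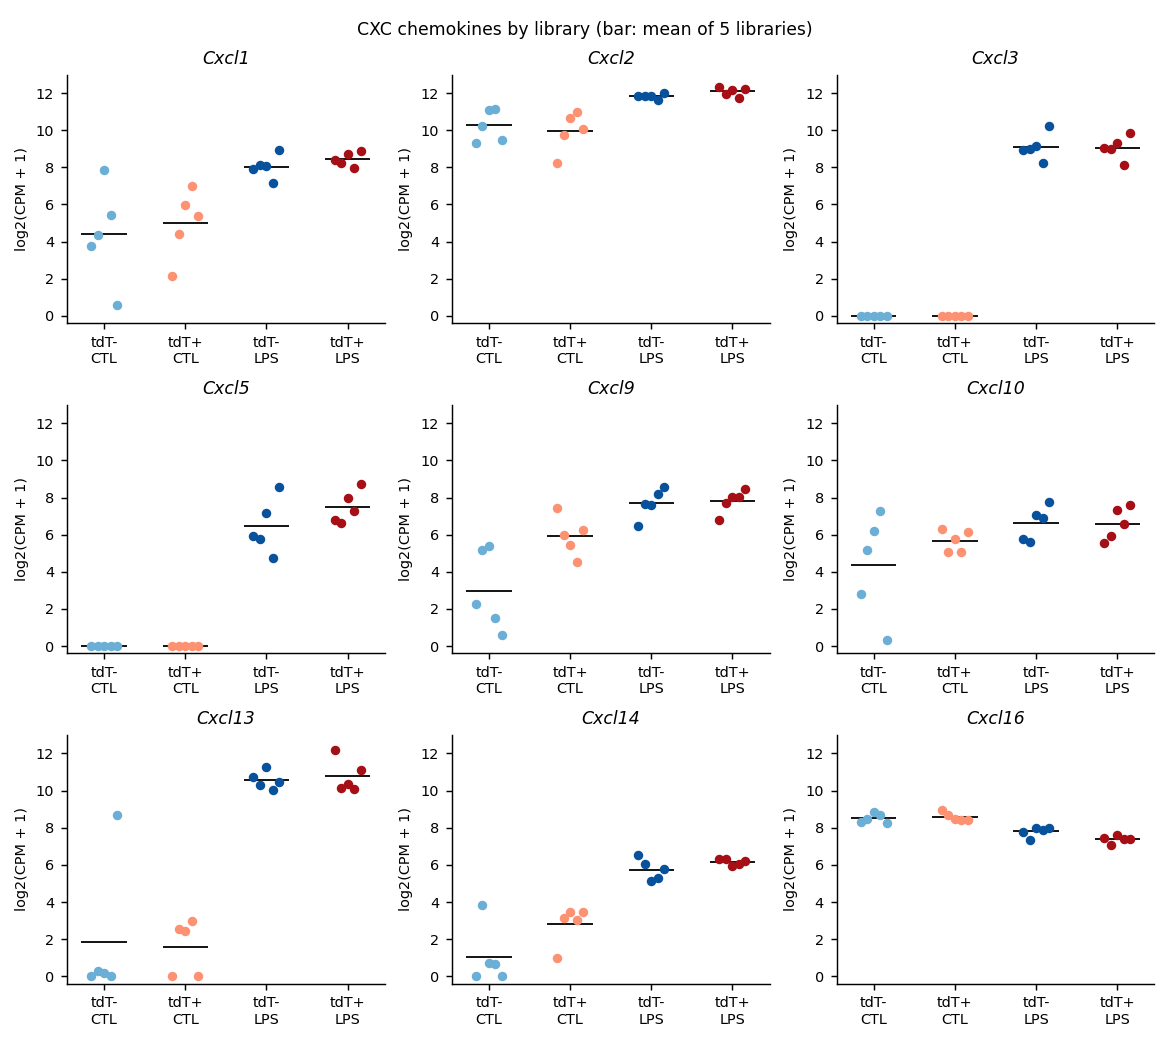
Level of each CXC chemokine in the 20 libraries as log2(CPM + 1), with 1 point per library, ordered by mouse within each of 4 groups, and a bar at the mean of 5 libraries. Cxcl3 and Cxcl5 lie at 0 in all 10 CTL libraries, 1 tdT- CTL library stands at 408 CPM for Cxcl13, and Cxcl16 is the member that lies lower under LPS.

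Among the neutrophil-attracting members, Cxcl3 and Cxcl5 had no count in CTL mice and were present in every LPS library. Cxcl3, a ligand of Cxcr2, had 0 counts in each of the 10 CTL libraries. Under LPS it stood at 487, 510, 574, 295 and 1209 CPM in tdT- and at 530, 499, 645, 275 and 933 CPM in tdT+ libraries. Every LPS library thus exceeded every CTL library, and mouse 61 was highest in both populations. Taking 3 counts in the shallowest CTL library as the floor, Cxcl3 was at least 1351-fold higher in tdT- (adjusted p = 4.62e-08) and at least 1184-fold higher in tdT+ dCAMs (adjusted p = 3.87e-08). Cxcl2 and Cxcl3 share 126 stretches of 50 bases, 5.84% of those in the exons of Cxcl2 and 3.51% of those of Cxcl3. The same CTL libraries held 1859 to 19844 counts of Cxcl2 beside 0 of Cxcl3.

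Cxcl5, which also acts on Cxcr2, had 0 counts in the 10 CTL libraries as well. It reached 61.0, 53.7, 143, 25.8 and 385 CPM in tdT- and 108, 96.6, 255, 154 and 426 CPM in tdT+ libraries of LPS mice. The LPS libraries were all above the floor and spread widely, mouse 61 again being highest in both populations. The bound was at least 294-fold in tdT- (adjusted p = 2.24e-05) and at least 427-fold in tdT+ dCAMs (adjusted p = 1.52e-05).

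Cxcl2, a neutrophil chemoattractant made by macrophages, was already abundant without LPS. Its tdT- CTL libraries held 626, 1217, 2218, 2240 and 721 CPM and its tdT+ CTL libraries 302, 857, 1603, 2013 and 1057 CPM. Under LPS the values were 3734, 3719, 3740, 3183 and 4151 CPM in tdT- and 5170, 4012, 4648, 3444 and 4706 CPM in tdT+ libraries. CTL and LPS libraries did not overlap in either population, and the spread was wide in CTL and narrow in LPS libraries. The log2 fold change was 1.40 ± 0.38 (SE, n = 5 per group, adjusted p = 0.0173) in tdT- and 1.91 ± 0.38 (adjusted p = 0.00239) in tdT+ dCAMs. With mouse as a replicate block, fitted by limma-voom with an estimated correlation of 0.0413, the fold changes were 1.49 and 2.09. The calls were lost in this fit (adjusted p = 0.713 and 0.742), in which the SE was 2.78 (tdT-) and 2.91 (tdT+) against 0.38 in edgeR. Limma-voom with quality weights and no block also lost the tdT- call (1.39 ± 0.61, adjusted p = 0.139). Voom with neither was not run, so the parts of the block and of voom in these losses cannot be told apart. Without the tdT- CTL libraries of mice 175 and 179 the fold change in tdT- dCAMs was 1.13 (adjusted p = 0.0780).

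Cxcl1, a further ligand of Cxcr2, varied widely between control mice. Its level in tdT- CTL libraries was 12.6, 19.2, 228, 42.0 and 0.523 CPM, and in tdT+ CTL libraries 3.41, 20.1, 62.2, 129 and 40.9 CPM. LPS libraries held 243, 281, 272, 140 and 480 CPM (tdT-) and 332, 300, 422, 248 and 473 CPM (tdT+). Only the CTL library of mouse 177 reached into the range of the LPS libraries, in tdT- dCAMs, and the tdT+ groups did not overlap. The log2 fold changes of 2.23 ± 0.92 (adjusted p = 0.115) in tdT- and 2.80 ± 0.94 (adjusted p = 0.0918) in tdT+ dCAMs did not pass the threshold. Under the replicate block they were 3.91 (adjusted p = 0.0165) and 3.41 (adjusted p = 0.0187), and without mouse 177 the tdT- value was 3.93 (adjusted p = 0.00787).

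Markers of neutrophils, the cells these ligands attract, were also higher in LPS libraries. The summed level of the 9 markers was 67.8 to 195 CPM in CTL and 434 to 1091 CPM in LPS libraries, carried mainly by S100a8, Csf3r and Mmp8 and, in tdT- libraries, Retnlg. S100a9, a partner of S100a8 that neutrophils hold in large amounts, was at 2.18 CPM or less in each LPS library, and Ly6g, which defines neutrophils in the mouse, at 1.54 CPM or less. The part of these markers in the chemokine levels was not tested.

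Of the Cxcr3 ligands, Cxcl9 was higher under LPS in tdT- dCAMs, and Cxcl10 passed in neither population. Cxcl9, an interferon-gamma target, stood at 3.79, 35.6, 41.4, 1.81 and 0.523 CPM in tdT- CTL and at 173, 62.4, 43.1, 22.3 and 75.2 CPM in tdT+ CTL libraries. LPS libraries held 89.0, 199, 194, 287 and 384 CPM (tdT-) and 109, 210, 258, 262 and 354 CPM (tdT+). The tdT- groups did not overlap, whereas the tdT+ CTL library of mouse 174 lay above the lowest LPS library. The log2 fold change was 3.79 ± 0.87 (SE, n = 5 per group, adjusted p = 0.00548) in tdT- and 1.67 ± 0.80 (adjusted p = 0.253) in tdT+ dCAMs. The tdT- call was lost with limma-voom quality weights (adjusted p = 0.227), and in edgeR on the 2 groups alone (adjusted p = 0.0571). Under the same alternatives Cxcl9 passed in tdT+ dCAMs instead, with log2 fold changes of 2.19 (adjusted p = 0.0159) and 1.66 (adjusted p = 0.0250). The difference between these effects, tdT+ minus tdT-, was -2.13 ± 1.11 (adjusted p = 0.443) and did not pass.

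Cxcl10, induced by interferons of both types, ranged from 0.262 to 153 CPM (median 35.1) in tdT- CTL and from 32.2 to 79.2 CPM (median 52.8) in tdT+ CTL libraries. Under LPS it ranged from 47.8 to 214 CPM (median 120) in tdT- and from 45.4 to 192 CPM (median 93.9) in tdT+ libraries. All groups overlapped. The log2 fold changes of 1.09 ± 0.84 (adjusted p = 0.404) and 1.06 ± 0.84 (adjusted p = 0.577) were close to the size of their errors.

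Cxcl13, the B cell chemoattractant, had a higher log2 fold change in tdT+ dCAMs than the other members with counts in CTL libraries. Its tdT- CTL libraries held 0, 0.220, 0.123, 0 and 408 CPM, and its tdT+ CTL libraries 0, 4.78, 4.38, 6.92 and 0 CPM. Under LPS Cxcl13 reached 1672, 1241, 2474, 1047 and 1405 CPM in tdT- and 4688, 1126, 1288, 1080 and 2251 CPM in tdT+ libraries. Each LPS library exceeded each CTL library in both populations, but the tdT- CTL library of mouse 179 stood at 408 CPM where the others had 2 counts at most. The log2 fold change in tdT+ dCAMs was 9.33 ± 2.12 (SE, n = 5 per group, adjusted p = 0.00756). That call was lost under the replicate block through voom (11.13 ± 9.58, adjusted p = 0.573) and with voom quality weights without the block (10.22 ± 5.34, adjusted p = 0.183). In tdT- dCAMs the log2 fold change was 4.26 ± 1.68 (adjusted p = 0.0985). Without mouse 179 it was 13.91 (adjusted p = 1.41e-07), a value that rests on 4 CTL libraries with 2 counts of Cxcl13 or fewer. The library of mouse 179 was also the one with 4668 CPM of fibroblast markers, and the part of these cells in its Cxcl13 level was not tested. Ighm, an immunoglobulin heavy chain gene of B cells, averaged 835 ± 182 and 774 ± 272 CPM in tdT- and tdT+ CTL libraries and 6.90 ± 4.62 and 7.54 ± 2.67 CPM in LPS libraries (SD, n = 5).

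Cxcl14 was low in CTL libraries. It stood at 0, 13.4, 0.614, 0.564 and 0 CPM in tdT- CTL and at 0.974, 7.96, 10.1, 7.23 and 9.81 CPM in tdT+ CTL libraries. LPS libraries held 90.7, 65.9, 33.6, 38.0 and 53.2 CPM (tdT-) and 78.3, 79.4, 61.0, 65.6 and 73.0 CPM (tdT+). CTL and LPS libraries were apart in both populations, and the highest tdT- CTL value belonged to mouse 175, the second library with raised fibroblast markers. The log2 fold change was 4.26 ± 1.13 (adjusted p = 0.0153) in tdT- dCAMs. In tdT+ dCAMs it was 3.30 ± 1.08 (adjusted p = 0.0775), and with the replicate block 3.59 (adjusted p = 0.00884). Without the tdT- CTL library of mouse 175, which takes no part in this contrast but enters the common estimate of the spread, the adjusted p in tdT+ dCAMs was 0.00460. The tdT- call was lost without mouse 54 (3.97, adjusted p = 0.0541), and without mouse 175 the tdT- value was 7.57 (adjusted p = 3.53e-05).

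Cxcl16, the transmembrane member, was the one member that lay lower under LPS. Its CTL libraries held 319, 358, 455, 404 and 303 CPM (tdT-) and 494, 406, 359, 346 and 345 CPM (tdT+). Under LPS they held 215, 162, 255, 238 and 255 CPM in tdT- and 176, 133, 194, 165 and 166 CPM in tdT+ dCAMs. No LPS library reached the level of a CTL library of its population. In tdT+ dCAMs Cxcl16 fell by 1.22 ± 0.19 on the log2 scale (SE, n = 5 per group, adjusted p = 1.35e-04). In tdT- dCAMs the log2 fold change was -0.71 ± 0.19 (adjusted p = 0.0142), which is under the limit on size. The difference between the populations was -0.52 ± 0.26 (adjusted p = 0.415).

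**Figure D2:**
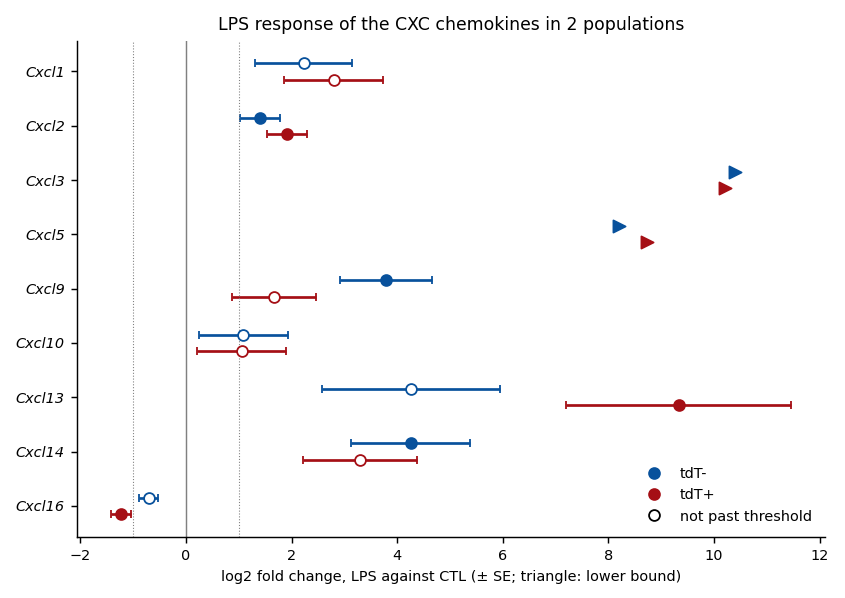
Log2 fold change of each member, LPS against CTL, in tdT- (blue) and tdT+ (red) dCAMs with its SE from the joint fit of 5 libraries per group, open points not passing the threshold, dotted lines at the limits of 1 and -1, and triangles for lower bounds. The bounds of Cxcl3 and Cxcl5 are shown against the floor, the tdT- value of Cxcl13 includes the CTL library of mouse 179, and Cxcl16 is the one member below 0, at -0.71 and -1.22.

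To compare levels between members, mean CPM was divided by the length of the principal transcript. On this scale, CPM per kb, Cxcl2 led in all 4 groups. It made up 77.8% ± 11.2 of the family's summed level in tdT- CTL libraries and 74.2% ± 16.2 in tdT+ CTL libraries (SD, n = 5). Under LPS its share was 56.6% ± 5.99 in tdT- and 57.1% ± 7.42 in tdT+ libraries. Cxcl16 came second in CTL libraries, at 136 ± 23.1 and 144 ± 23.4 CPM per kb in tdT- and tdT+ dCAMs. Cxcl13 came second under LPS, with 22.6% ± 5.95 and 23.5% ± 10.4 of the sum, followed by Cxcl3 with 9.67% ± 3.78 and 7.94% ± 2.50. The sum over the 9 members was 1593 ± 788 and 1331 ± 601 CPM per kb in tdT- and tdT+ CTL libraries and 5990 ± 1099 and 7135 ± 1983 CPM per kb in tdT- and tdT+ LPS libraries. Ranges of the sum did not overlap between CTL (592 to 2488) and LPS (4553 to 9864). With the union of exons as the length, Cxcl2 still led and Cxcl13 still came second under LPS, but its share of the group means was 1.58 (tdT-) and 1.54 (tdT+) times as high, reaching 39.2% in tdT+ LPS libraries, and Cxcl1 came ahead of Cxcl3 in tdT+ LPS libraries.

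**Figure D3:**
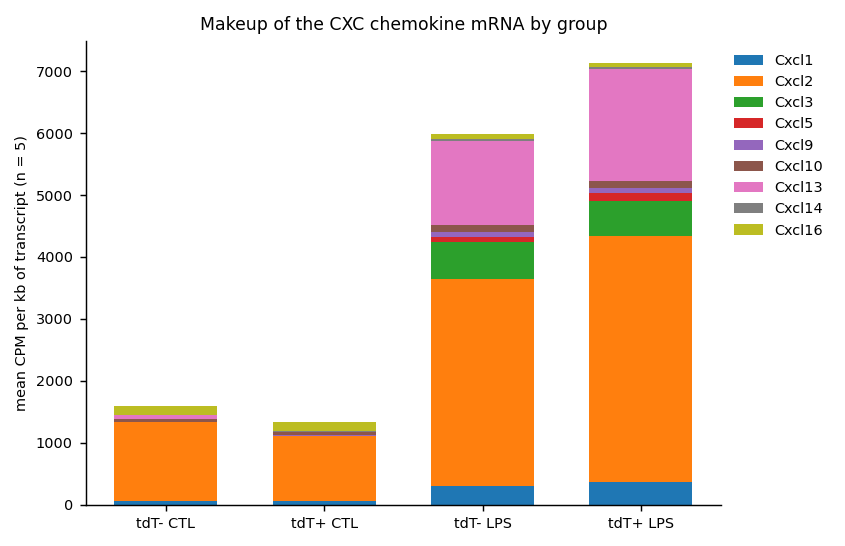
Mean level of each CXC chemokine in CPM per kb of principal transcript, stacked by group (5 libraries each). The stacks reach 1593 and 1331 CPM per kb in CTL and 5990 and 7135 CPM per kb in LPS groups, Cxcl2 is the widest band throughout, and Cxcl13 and Cxcl3 become visible bands under LPS.

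No member passed the threshold between the populations in either treatment. In CTL mice 0 of 9 members passed the threshold in edgeR, where 4.28% of all genes did, with 2 members (Cxcl9 and Cxcl13) at an unadjusted p under 0.05. DESeq2 called both of these in CTL mice, Cxcl9 with a log2 fold change of 2.23 (adjusted p = 0.0393) and Cxcl13 with -4.72 (adjusted p = 0.0372), and the voom fit with the replicate block called 1 member, Cxcl14. In LPS mice 0 passed, where 0.0301% of all genes did, with 1 member (Cxcl16) at an unadjusted p under 0.05, and 0 by DESeq2 and the voom fits. For the difference between the LPS effects 0 passed, where 1.26% of all genes did, with 1 member (Cxcl13) at an unadjusted p under 0.05, and 0 by DESeq2 and the voom fits.

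Of the 9 members 1 had the same direction in all 5 CTL mice, a share near the 9.46% of all genes that did. Cxcl3 and Cxcl5, without counts in CTL mice, could not have a direction. The 1 member, Cxcl9, was higher in the tdT+ library than in the tdT- library of each CTL mouse. Its means were 75.3 ± 58.4 CPM in tdT+ and 16.6 ± 20.1 CPM in tdT- CTL libraries (SD, n = 5). The gap within a mouse ran from 1.76 CPM in mouse 177 to 170 CPM in mouse 174. The log2 fold change was 2.18 ± 0.81 (adjusted p = 0.125), and under LPS it was 0.05 ± 0.78 (adjusted p = 1).

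Under LPS 3 members had the same direction in all 5 mice, where 9.90% of all genes did. Cxcl2 and Cxcl5 were higher in each tdT+ library and Cxcl16 was lower. The log2 fold change was 0.25 ± 0.37 for Cxcl2, 0.63 ± 0.69 for Cxcl5 and -0.43 ± 0.19 for Cxcl16, with adjusted p values of 1, 1 and 0.913. With the replicate block through voom, the value for Cxcl2 was 0.33 (adjusted p = 0.00907), which is under the limit on size. Within mice, the tdT+ level of Cxcl5 was 1.10 to 5.97 times the tdT- level, and that of Cxcl2 1.08 to 1.38 times.

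For Cxcl13 and Cxcl14 the comparison in CTL mice turned on single libraries. Cxcl13 had a log2 fold change of -4.66 ± 1.74 (tdT+ against tdT-, adjusted p = 0.125), which turned to 4.99 (adjusted p = 0.0216) without the tdT- CTL library of mouse 179. The populations' LPS effects differed by 5.07 ± 2.23 for Cxcl13, tdT+ minus tdT- (adjusted p = 0.315), and by -4.91 (adjusted p = 0.0357) without mouse 179. Cxcl14 had a log2 fold change of 1.30 ± 1.01 in CTL mice (adjusted p = 0.493), which was 4.52 (adjusted p = 0.00175) without the tdT- CTL library of mouse 175 and 3.68 (adjusted p = 0.0332) with the replicate block. Its difference between the LPS effects was -0.95 ± 1.40 (adjusted p = 0.985) and -4.18 (adjusted p = 0.0240) without that library.

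**Figure D4:**
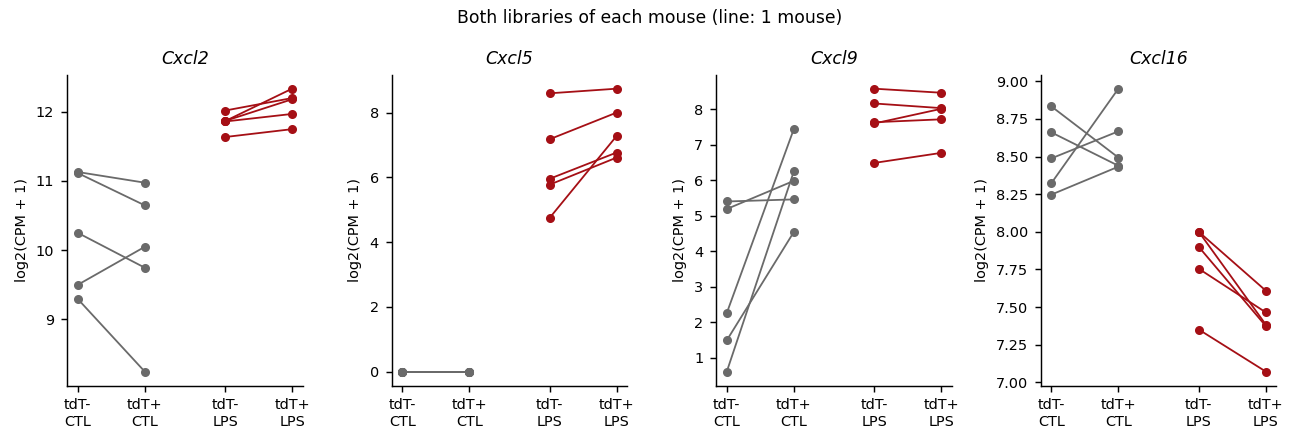
Log2(CPM + 1) of 4 members in the tdT- and tdT+ library of each mouse, joined by a line, for CTL (grey) and LPS (red) mice. Cxcl9 lines rise in all 5 CTL mice, Cxcl2 and Cxcl5 lines rise and Cxcl16 lines fall in all 5 LPS mice, and Cxcl5 lies at 0 in CTL mice.

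The order of the 4 groups was read for each member from its means. Cxcl2, Cxcl3, Cxcl5, Cxcl9 and Cxcl14 had both LPS groups above both CTL groups, as had Cxcl1, Cxcl10 and Cxcl13, and Cxcl16 had the reverse. Neighbours of the same treatment did not pass the threshold for any member in the joint fit, though 3 of these differences (Cxcl9 and Cxcl13 in CTL mice, Cxcl16 under LPS) had an unadjusted p under 0.05. Neighbours of different treatment and population were not tested against each other.

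Of 10 receptor genes 9 were tested (Cxcr1 was below the filter), and with LPS 1 passed as higher in the tdT- population and 0 in the tdT+ population. Counts of this and the following lists are read beside the 7.20% of all genes called higher and 4.27% called lower in tdT- dCAMs, and 3.37% and 2.52% in tdT+ dCAMs. Cxcr5, the receptor of Cxcl13, went from 0 counts in the tdT- CTL libraries to 3.39 ± 2.47 CPM (SD, n = 5), at least 7.44-fold higher (adjusted p = 0.0297), though 1 of the 5 LPS libraries had no count. Cxcr6, the receptor of Cxcl16, had 0 counts in tdT- CTL libraries and 7.86 ± 4.34 CPM in tdT+ CTL libraries, at least 17.3-fold higher (adjusted p = 0.0368). Cxcr2 averaged 2.48 CPM or less in each group. Cxcr3 averaged 12.4 ± 17.3 and 19.4 ± 7.90 CPM in tdT- and tdT+ CTL libraries and 0.332 ± 0.479 and 1.08 ± 1.05 CPM under LPS.

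None of the 5 other CXC ligand genes passed in either LPS contrast of edgeR's quasi-likelihood fit. Pf4 (Cxcl4), a macrophage and platelet product, was abundant in all groups, with means of 1418 ± 579 and 1636 ± 129 CPM in CTL and 1536 ± 268 and 2197 ± 585 CPM in LPS libraries (tdT- and tdT+, SD, n = 5). Its log2 fold changes under LPS were 0.11 ± 0.24 (tdT-) and 0.43 ± 0.24 (tdT+). Cxcl12, the ligand of Cxcr4, averaged 21.2 ± 32.6 and 16.2 CPM (0 to 27.1) in CTL and 74.6 ± 32.3 and 107 ± 29.3 CPM in LPS libraries (adjusted p = 0.323 and 0.227).

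Of 9 enzymes that cut or release CXC chemokines, 3 passed as higher under LPS in each population and 0 as lower. Mmp8, a collagenase that trims Cxcl5, was at 0.325 CPM or less in CTL libraries and averaged 98.0 ± 28.5 CPM in tdT- and 103 ± 34.3 CPM in tdT+ LPS libraries (adjusted p = 1.87e-07 and 1.83e-07). Anpep, an aminopeptidase, had log2 fold changes of 7.22 ± 0.66 (tdT-) and 3.76 ± 0.56 (tdT+), and the difference of -3.46 ± 0.74 passed (adjusted p = 0.0191). Mmp14, a membrane-bound protease, rose by 4.62 ± 0.82 and 3.89 ± 0.80 on the log2 scale (adjusted p = 6.09e-04 and 0.00289). Adam10, which sheds Cxcl16 from the membrane, did not pass, with means of 91.5 ± 87.5 and 148 ± 46.4 CPM in CTL and 220 ± 28.8 and 207 ± 32.0 CPM in LPS libraries.

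Among 14 interferon-induced genes and their factors, LPS went with 5 higher and 1 lower in tdT- dCAMs, and with 6 higher and 1 lower in tdT+ dCAMs. Irf7, an interferon regulatory factor, rose by 3.05 ± 0.44 and 3.12 ± 0.44 on the log2 scale, and Isg15, a ubiquitin-like modifier, by 2.38 ± 0.48 and 2.90 ± 0.49 (tdT- and tdT+). Irf1 fell by 1.07 ± 0.26 and 1.35 ± 0.27. The list's median log2 fold change was 0.95 in tdT- and 1.60 in tdT+ dCAMs.

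Of 11 NF-kB subunits and induced regulators, 1 was higher and 1 lower in each population, a share near that of all genes in tdT- dCAMs. Tnfaip3, an inhibitor of NF-kB signalling, rose by 1.19 ± 0.33 and 1.63 ± 0.34 on the log2 scale (tdT- and tdT+), and Nfkbiz, a co-activator of secondary response genes, fell by 1.38 ± 0.31 and 1.05 ± 0.30. Of 8 regulators of chemokine mRNA decay, 0 passed in tdT- dCAMs and 1 was lower in tdT+ dCAMs, Zfp36l2, which fell by 1.59 ± 0.23 on the log2 scale (adjusted p = 8.00e-05). The medians of these lists were between -0.15 and 0.30.

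Genes with the most similar pattern were sought for the 6 members whose log2 CPM averaged 4 or more, by the root mean square difference of centred log2 CPM over the 20 libraries. Cxcl16 was closest to Ftl1, the ferritin light chain (0.277), followed by Nop10 and, at 0.296, Anxa5. Cxcl2 was closest to Mt1, a metallothionein (0.286), whose means were 709 ± 418 and 539 ± 190 CPM in CTL and 2166 ± 242 and 2492 ± 298 CPM in LPS libraries. Cstb and Rbm3 came next at 0.514 and 0.516. Cxcl10 (Wsb2, 0.740), Cxcl9 (Cmpk2, 0.979) and Cxcl1 (Dnajc10, 1.10) had more distant neighbours, and Cxcl13 had none within 2.74, the distance of Fpr2. These distances describe the libraries, which share depth and treatment.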

How the data were processed

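Bulk RNA sequencing was made from sorted dCAMs, and the authors deposited raw counts per gene, with no scaling applied. Per the submitters' processing notes, bcl2fastq 2.20, STAR 2.7.11a, featureCounts 2.0.6 and DESeq2 1.46.0 were used. Libraries came from a low-input PCR kit without molecular identifiers, so the floor of 3 counts covers counting error only, and use of strand in counting is not given in the sources used here. The methods name more than 1 genome build, and GRCm38 coordinates therefore only locate genes.

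Groups came from the labels. Genes with a total under 10 counts were removed, and 16632 were fitted jointly over 20 libraries with edgeR 4.0.16 (TMM, quasi-likelihood, 1 mean per group) in R 4.3.3, in 5 contrasts. P-values were adjusted by Benjamini-Hochberg over all genes. The common biological coefficient of variation was 1.13. The scripts were tested on simulated data of smaller spread and without pairing, which checks the code and not the error rate in these libraries. Alternatives used DESeq2 1.42.0, limma 3.58.1 (voom), other scalings and filters, thinning, the letter of the title, mouse as a block, and libraries left out. DESeq2 was also the test of the authors.

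Mouse numbers pair the libraries, since both came from the same animal. Over the 16632 genes tested, deviations of paired libraries from their group means correlated at 9.14e-04 to 0.0333 in CTL and 0.0471 to 0.119 in LPS mice. Over the 5823 of them whose log2 CPM averaged 4 or more, the correlations were -0.00460 to 0.0461 in CTL and 0.228 to 0.449 in LPS mice. With 5 animals per group, the main p-values use a spread that each gene shares over all 20 libraries. Both libraries of a mouse were treated as independent in that fit. Its contrasts between tdT+ and tdT- dCAMs therefore ignore the pairing, which the alternatives with mouse as a block take in. The members and companion lists were chosen with earlier results of these data known. All members are named. Of each companion list, up to 3 genes with the smallest p and others of stated role are named, the latter chosen after their values were seen.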

Additional observations from a re-analysis of the deposited data

Results flagged for a closer look

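For each member and group of 5 libraries, the gap between the most extreme library and its neighbour was compared with the range of the group. This gap was above Dixon's limit of 0.71 in 3 of 32 groups, all among tdT- CTL libraries. The limit's rate of about 1 in 20 by chance holds for normally distributed values, and the rate for these CPM values was not tested. Cxcl1 stood at 228 CPM in mouse 177, with the next library at 42.0 CPM. Cxcl13 stood at 408 CPM in mouse 179, with the next at 0.220 CPM. Cxcl14 stood at 13.4 CPM in mouse 175, with the next at 0.614 CPM. The libraries of mice 179 and 175 had the highest summed fibroblast markers of the group (4668 and 1068 CPM), and that of mouse 177 had 315 CPM. The part of these markers in the values was not tested.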

How the results depend on the processing

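Over 1051 alternative values of the 45 log2 fold changes of members, 1004 kept their side of the threshold, 33 passed newly, 10 were lost and 4 reversed. Reversed means a change of direction with a call in at least 1 of the fits compared. The 1004 include changes of direction without a call, as for Cxcl1 between populations in CTL mice, whose alternatives ran from -0.93 to 1.37. The 5 members called in tdT- dCAMs under LPS became 3 with limma-voom quality weights and 3 in a fit of the 2 groups alone, and the 5 called in tdT+ dCAMs became 8 in the latter. In CTL mice the 0 members called between populations became 2 with DESeq2, 1 with the replicate block through voom, and 0 with mouse as a fixed block. Leaving out replicates gave 0 to 1 there and 0 to 1 for the difference of LPS effects, and without both tdT- CTL libraries of mice 175 and 179, a choice made after seeing the data, the counts were 2 and 1. Cxcl13 reversed in CTL mice without mouse 179 (5.33), without its tdT- library (4.99) and without both libraries (5.93), and its difference of LPS effects without mouse 179 (-4.91). Over the single mice left out, these values ran from -5.43 to 5.33 and from -4.91 to 5.86.

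Among the calls lost were Cxcl9 in tdT- dCAMs with quality weights (adjusted p = 0.227) and in the 2-group fit (adjusted p = 0.0571). Others were Cxcl2 in tdT- dCAMs with quality weights (adjusted p = 0.139), Cxcl14 in tdT- dCAMs in the 2-group fit (adjusted p = 0.143) and Cxcl13 in tdT+ dCAMs with quality weights (adjusted p = 0.183). The remaining losses are given with the results. Cxcl3 and Cxcl5 passed in both populations under all 23 alternatives. The replicate block through voom changed the calls given beside the results and no other. The causes were not tested.

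Over all genes, LPS in tdT- dCAMs gave 1907 calls, 4523 with the replicate block through voom, 891 in the 2-group fit and 3132 without both doubted libraries. LPS in tdT+ dCAMs gave 979, against 1571 with that block, 1545 with DESeq2, 3155 with quality weights and 2262 in the 2-group fit. The populations gave 712 in CTL mice, against 2245, 1644, 369 and 7 under the same alternatives in that order and 2219 without both libraries, and 5 in LPS mice, against 22, 60, 137 and 39, and 3 with the fixed block. The difference gave 209, against 619 with the block, 744 with DESeq2, 83 with the fixed block and 1102 without both libraries. Leaving out 1 mouse gave up to 1352 between populations in CTL mice, as few as 1 in LPS mice and 63 to 640 for the difference, and leaving out the tdT- CTL library of mouse 175 alone gave 1576 and 660 in the first and last of these. Other scalings moved the median of all genes by less than 0.1. At this depth the folds of Cxcl3 and Cxcl5, with 0 counts in the 10 CTL libraries, are bounds only, and 4 of 5 tdT- CTL libraries held 2 counts of Cxcl13 or fewer.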

Other observations

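Each sample title opens with the letter F or M. Under LPS Cxcl10 stood at 47.8 to 52.8 CPM in the 2 F mice and at 120 to 214 CPM in the 3 M mice in tdT- libraries, and at 45.4 to 59.2 and 93.9 to 192 CPM in tdT+ libraries. Cxcl14 went the other way, at 65.9 to 90.7 (F) and 33.6 to 53.2 CPM (M) in tdT- and 78.3 to 79.4 and 61.0 to 73.0 CPM in tdT+ LPS libraries. In CTL mice Cxcl2 stood at 626 to 1217 CPM in the 3 F mice and at 2218 to 2240 CPM in the 2 M mice in tdT- libraries, and at 302 to 1057 and 1603 to 2013 CPM in tdT+ libraries. These genes were picked after their values were seen, no test was run, and both libraries of a mouse share the animal.

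Mouse 61 had the highest level of Cxcl1, Cxcl3, Cxcl5, Cxcl9 and Cxcl10 among the 5 LPS mice in both populations. Its tdT+ library was deeper (18925908 counts) than any other, and its tdT- library held 13016830 counts, within its group's 12177799 to 16477892. The summed neutrophil markers were also highest in mouse 61, at 1091 (tdT-) and 959 CPM (tdT+). How many of all genes were highest in this mouse was not counted, and the part of depth and of these markers was not tested.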
